A study of Mus musculus with 6 samples.

Results

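The genes described here are agouti (symbol a) and 7 genes of the melanosome, Pmel, Tyr, Tyrp1, Dct, Mlana, Oca2 and Slc45a2. They are 8 of the 18193 genes that the array's annotation names from a single symbol, and 13 probe sets measure them. All probe sets with 1 of these symbols were taken. The set was picked from measured values, namely the agouti signal of the pregnant arrays and the Pmel signal of the virgin mutant array, so those values are given as a description with no test.

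Agouti is a small secreted protein that blocks the melanocortin 1 receptor on melanocytes and so turns pigment synthesis from black eumelanin to yellow phaeomelanin. In hair it is made by the dermal papilla of the follicle. The other genes act inside the pigment cell: tyrosinase (Tyr) catalyses the rate-limiting step of melanin synthesis, Tyrp1 and Dct are related enzymes of the same pathway, Pmel forms the fibrils on which melanin is laid down, Mlana is a melanosomal protein needed for Pmel processing, and Oca2 and Slc45a2 are melanosomal membrane transport proteins. Melanocytes and hair follicles belong to the skin that overlies the mammary gland.

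The study hybridised total RNA of whole mammary glands from 6 female mice of mixed 129, FVB and Black Swiss background, 1 mouse per array, to search for genes regulated by Brca1. The virgin mutant was Brca1 D11/D11;p53+/- and its control is written Brca1 D+/+;p53+/-, both 6 months old. The pregnant mutant was Brca1 co/co with MMTV-Cre and its control Brca1 +/co with MMTV-Cre, both 5 months old and at day 16.5 of pregnancy. The lactating mutant was Brca1 D11/D11;p53+/- and its control Brca1 D+/+;p53+/-, both 2 months old and on day 1 of lactation. Both mice of the virgin and lactating pairs thus carry 1 inactive p53 allele, and both pregnant mice carry the Cre transgene, whose MMTV promoter is active mainly in mammary epithelium. The series' design text, by contrast, describes all 3 pairs by the D11/D11;p53+/- genotype. Coat colour and coat-colour alleles of these mice are not given in the labels. With 1 mouse for each stage and genotype, genotype has 3 pairs and each stage 2 arrays. The titles of the lactating arrays also open with another date than those of the other arrays, and the labels do not say what it marks. Lactation, age and this date thus cannot be told apart. Pregnancy cannot be told apart from the genotype scheme of its pair, nor from age, 5 months against 6 months in the virgin mice.

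Values are MAS5 signals, a linear measure of probe set brightness in arbitrary units, and as deposited they had a 2% trimmed mean of 500.0 on every array. Because no detection calls were used, the 20 probe sets of Y-linked genes, which should be dark in females, served as the level of no expression. Their highest signal was 165.8 and 105.1 on the virgin mutant and control arrays, 162.1 and 195.7 on the pregnant mutant and control arrays, and 353.3 and 483.5 on the lactating mutant and control arrays. Dark probe sets were therefore brighter on the lactating arrays. A value under the highest Y-linked signal of its array is called dark here, which does not show that the gene was silent. For the labelled tissue, 10 of 11 luminal epithelial markers and 11 of 12 milk genes lay above that level on all 6 arrays. The brightest of 4 Brca1 probe sets, whose place relative to the deleted exon is not given here, read 486.5 in the virgin mutant and 137.0 in its control, 288.0 in the pregnant mutant and 158.7 in its control, and 156.7 in the lactating mutant and 237.6 in its control, so it does not check the labels. All 4 were higher in the virgin mutant than in its control, 3 of 4 in the pregnant mutant and 2 of 4 in the lactating mutant.

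Promoter sequences are shown for the members whose data the results turn on, and come from RefSeq (GRCm38.p6), which held 5 of the 8 members (a, Tyr, Tyrp1, Dct and Oca2). Pmel, Mlana and Slc45a2 had no entry. Tyr, Tyrp1 and Dct are shown because these enzymes of 1 family share a stretch near their start sites. The capitals mark the 10 bases GTCATGTGCT, the longest run common to the 3 promoters. It contains TCATGTG, the core of the M-box, the element through which the melanocyte factor Mitf is known to act on pigment genes. Each line gives 40 bases on both sides of it, 5′ to 3′ on the gene's strand. The Tyr window lies at chr7:87493486-87493575 on the minus strand, the Tyrp1 window at chr4:80834125-80834214 on the plus strand and the Dct window at chr14:118052349-118052438 on the minus strand.
Tyr: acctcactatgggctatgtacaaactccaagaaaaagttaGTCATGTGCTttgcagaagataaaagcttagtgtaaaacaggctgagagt
Tyrp1: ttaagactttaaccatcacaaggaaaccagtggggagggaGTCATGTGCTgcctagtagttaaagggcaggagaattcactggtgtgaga
Dct: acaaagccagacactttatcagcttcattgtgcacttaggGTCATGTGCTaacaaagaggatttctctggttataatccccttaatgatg
The first base of the shared run stood 23 bases before the annotated start in Tyr, 48 bases in Tyrp1 and 152 bases in Dct. Searched on both strands, the 10 bases occurred in 61 of 32851 promoters of the same length (0.186%) and the 7-base core, which lies within them, in 1239 (3.77%). Among the 5 members with a promoter, both were found in these 3 and in neither a nor Oca2. The match is a property of the sequence, and it says nothing of whether a factor bound there.

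Agouti lies at chr2:154950599-155051012, a protein-coding gene of 100414 bases. Its table entry is a window of 300 bases at chr2:155013320-155013619 on the plus strand, around a start site 62971 bases inside the gene record, so other starts of the gene lie outside it. It is shown as the promoter of the member with the highest signal. A 3′ expression array cannot tell which start was used.
a: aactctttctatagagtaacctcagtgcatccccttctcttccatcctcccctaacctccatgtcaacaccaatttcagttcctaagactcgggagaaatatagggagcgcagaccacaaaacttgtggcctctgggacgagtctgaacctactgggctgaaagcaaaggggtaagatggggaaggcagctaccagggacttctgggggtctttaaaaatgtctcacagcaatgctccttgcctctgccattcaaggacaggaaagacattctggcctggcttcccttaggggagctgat

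Agouti was bright on both pregnant arrays and at the dark level on the other 4. The virgin mutant and control arrays read 94.0 and 78.3, the pregnant mutant and control arrays 4867.8 and 15639.8, and the lactating mutant and control arrays 162.2 and 184.6. Only the pregnant values exceeded the highest Y-linked signal of their array, and the groups did not overlap. The 4 other values all lay under that level, so they have no order among themselves. They were above the median Y-linked signal of their array. That median was 23.45 and 28.5 on the virgin mutant and control arrays, and 75.35 and 98.7 on the lactating mutant and control arrays. In whole tissue, fewer cells of a type and less RNA per cell cannot be told apart. In the pregnant control agouti ranked 129 of 18193 genes by signal, and in the pregnant mutant 645.

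The lower pregnant value was at least 10.1-fold higher than the other 4 arrays, taken at 483.5, the highest Y-linked signal among them. With the dim arrays set to their highest Y-linked signal, the pregnant mean was at least 66.1-fold higher than the virgin mean and at least 21.1-fold higher than the lactating mean. Of 11496 tested genes, agouti had the largest gap between the lower pregnant value and the highest other value, 4.38 on the log2(signal + 52.0) scale, on which all log2 values here are given. Myhas followed with 3.20 and Mb, the myoglobin gene, with 2.33. These values chose the gene and carry no test.

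**Figure D1:**
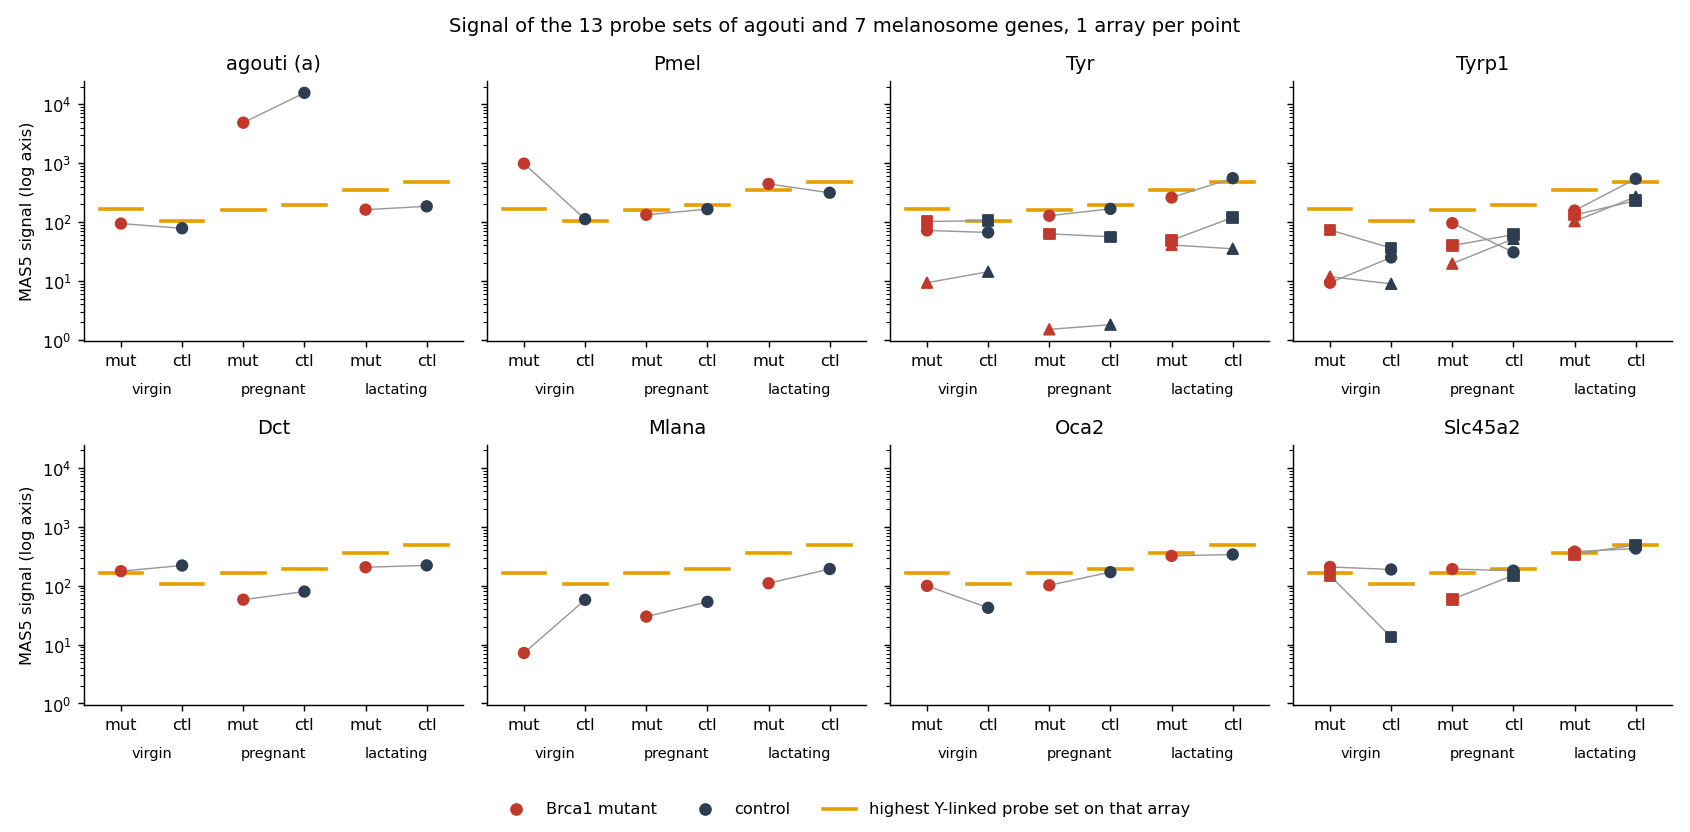
MAS5 signal (log axis, arbitrary units) of the 13 probe sets in 8 panels, with mutant arrays in red and control arrays in dark blue, 1 array per point. Marker shapes stand for different probe sets of a gene, grey lines join the pair of a stage, and orange bars give the highest Y-linked signal of that array. Agouti stands at 4867.8 and 15639.8 on the pregnant arrays, Pmel at 982.3 on the virgin mutant array, and most other points lie at or under the bars.

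The gene's neighbours did not share the pattern. Among the 3 genes with probe sets on each side, the pregnant minus virgin difference was 5.99 for agouti. It was 0.28 for 9030607L20Rik, -0.30 for Raly and 0.69 for Eif2s2 on one side, and -0.24 for Ahcy, 0.16 for 2310005A03Rik and -0.40 for Itch on the other. Raly encodes an RNA-binding protein, Eif2s2 a subunit of a translation initiation factor, Ahcy the enzyme that hydrolyses S-adenosylhomocysteine and Itch a ubiquitin ligase. Eif2s2 read 7633.9 and 9772.5 on the pregnant mutant and control arrays, against 5959.8 and 4807.4 on the virgin mutant and control arrays, the largest of these 6 differences.

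**Figure D2:**
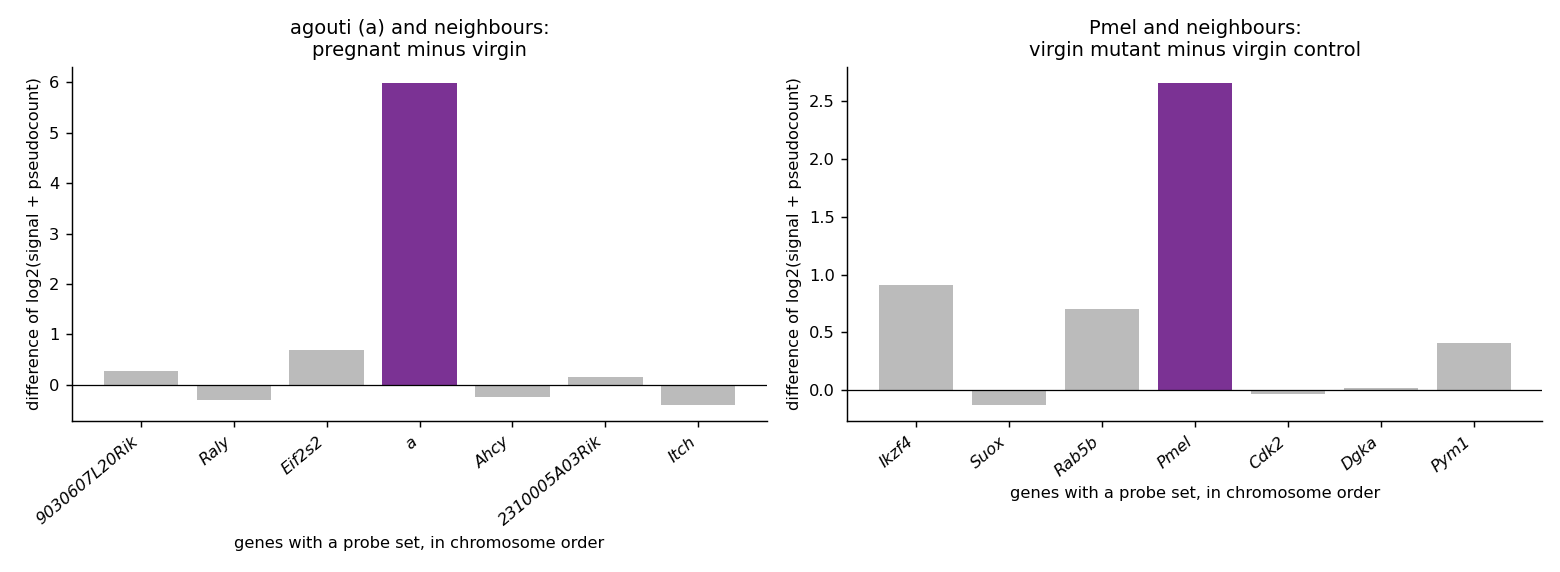
Difference in log2(signal + pseudocount) for agouti and its neighbours (left, pregnant minus virgin means of 2 arrays each) and for Pmel and its neighbours (right, virgin mutant minus virgin control, 1 array each), in chromosome order. Bars start at 0, and the purple bars, 5.99 for agouti and 2.66 for Pmel, stand above all 6 neighbours in their panel.

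Lists of dermal papilla and hair shaft genes were read beside agouti. The dermal papilla list had 12 of 13 genes on the array, and its summed signal was 2578 and 2126 on the pregnant mutant and control arrays, against 3377 and 2909 on the virgin mutant and control arrays. Corin, Sox2, Hhip and Rspo3 of that list stayed under the highest Y-linked signal on all 6 arrays. The largest member of the sum on the pregnant arrays was Sox18, which endothelial cells also express, with 855.5 and 735.2 on the pregnant mutant and control arrays, against 731.2 and 815.6 on the virgin ones. Wif1 read 413.6 and 319.8 on the pregnant mutant and control arrays, against 377.4 and 145.5 on the virgin ones, and Fgf7 239.7 and 199.5, against 178.3 and 174.6. Some other genes of the list were lower on both pregnant arrays. Prom1 read 118.4 and 129.7 on the pregnant mutant and control arrays, against 542.9 and 404.1 on the virgin ones. Bmp4 read 135.6 and 134.6 there, against 246.1 and 203.4, and Vcan 567.1 and 263.3, against 668.5 and 793.6. The pregnant minus virgin difference was positive for 3 of the 6 tested genes. Of these 6, 0 were called higher and 1 lower, beside 6.45% of all tested genes higher and 8.26% lower. The hair shaft list had 16 of 17 genes on the array and summed to 1280 and 1221 on the pregnant mutant and control arrays, against 1417 and 1119 on the virgin mutant and control arrays. In that list 11 of the 16 genes stayed under the highest Y-linked signal on every array. The part of skin in the agouti signal was not tested.

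Skeletal muscle genes were high on the same arrays. The 14 genes of the muscle list summed to 219044 and 192607 on the pregnant mutant and control arrays, against 18401 and 53653 on the virgin mutant and control arrays. They summed to 92686 and 97842 on the lactating mutant and control arrays. All 14 rose in pregnant against virgin glands (limma, adjusted p under 0.05), with a median log2 ratio of 2.87, where 6.45% of all tested genes were called higher and 8.26% lower. All 14 were above the highest Y-linked signal on both pregnant arrays. The part of muscle in the agouti signal was not tested.

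**Figure D3:**
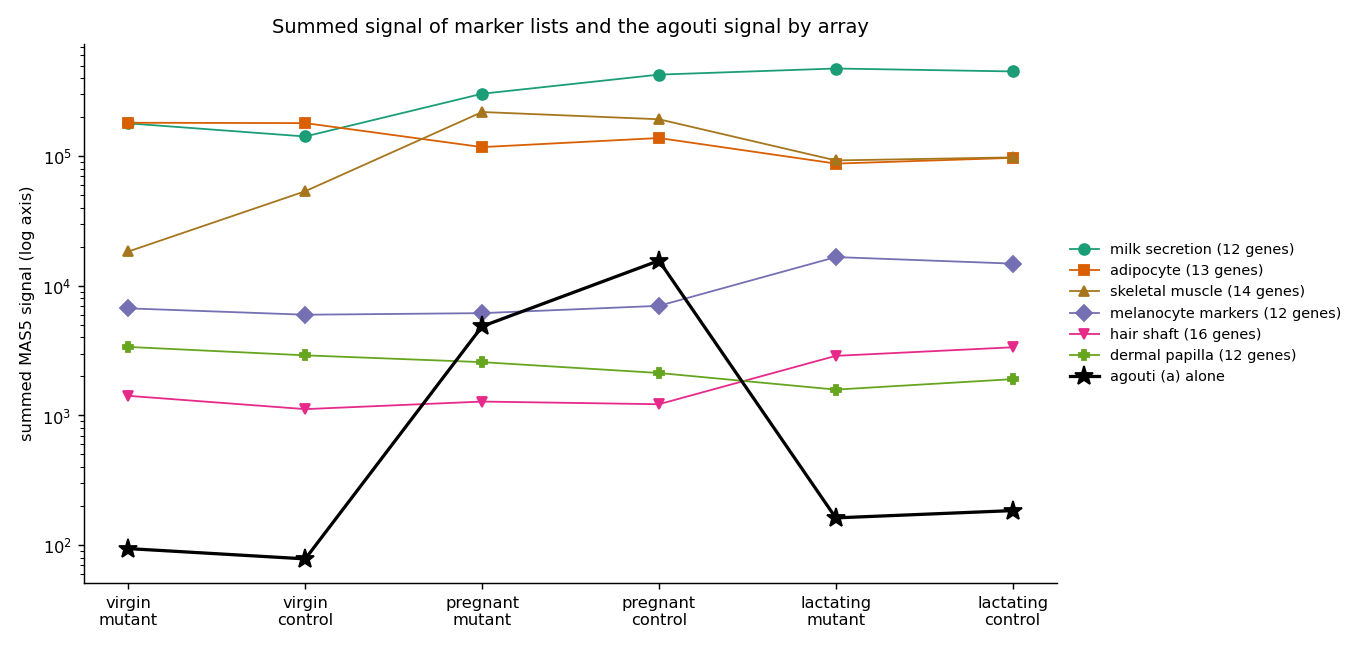
Summed MAS5 signal (log axis) of 6 marker lists and the agouti signal alone (stars) on the 6 arrays, with mutant left of control in each stage. Lines only join the points of a list. The melanocyte sum on the lactating mutant and control arrays, 16663 and 14832, holds Sox10 at 12068.5 and 9450.4. Sox10 is also a gene of mammary epithelium. Agouti and the skeletal muscle sum are both highest on the pregnant arrays, while the dermal papilla and hair shaft sums of those arrays stay between 1221 and 2578.

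The genes whose pattern was most like that of agouti were sought among 2157 tested genes that varied by at least 2 log2 units over the 6 arrays. The 10 highest Pearson correlations belonged to Ankrd22 (0.96), Rbfox1 (0.96), Myhas (0.94), Mb (0.93), Rtn2 (0.92), Ankrd23 (0.91), Mypn (0.91), Foxs1 (0.90), Rgs8 (0.90) and Tmod4 (0.90). Ankrd22 read 602.7 and 770.8 on the pregnant mutant and control arrays, against 165.2 and 114.8 on the virgin ones. These values describe 6 arrays that fall into pregnant and other glands. Mb is also in the muscle list. That list is short, and the other genes named here were not sorted by tissue.

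Agouti was lower in the pregnant mutant than in the pregnant control, at 0.311 times its signal. On the log2 scale the difference was -1.67 in the pregnant pair, 0.16 in the virgin pair and -0.14 in the lactating pair, where both values were dark. Over the 3 pairs, with stage as a block in a limma model, the mutant minus control difference was -0.55 ± 0.34 (SE, n = 3 pairs), given without a test because it rests on the pregnant values that chose the gene. Without either pregnant array the fitted value was 0.01.

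Pmel lies at chr10:128695888-128720238 and is measured by 1 probe set. It read 982.3 in the virgin mutant and 111.9 in the virgin control, 132.5 in the pregnant mutant and 165.4 in the pregnant control, and 443.5 in the lactating mutant and 314.1 in the lactating control. The virgin mutant stood highest, at 8.78 times its control and 2.22 times the next array. The virgin mutant, virgin control and lactating mutant values exceeded the highest Y-linked signal of their array, the virgin control by 111.9 to 105.1 only. The other 3 were below it and have no order.

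In the virgin mutant Pmel ranked 4563 of 18193 genes by signal. Its virgin mutant minus control difference of 2.66 was the largest of the 11496 tested genes, and by its gap to the next array, 1.06, it ranked 8. Tph1 (1.69), Ms4a4b (1.49), Hnrnpd (1.48), Pkp1 (1.29), Cited1 (1.24), Kif23 (1.13) and Coro1a (1.09) stood above it by that gap. The mutant minus control difference was -0.24 in the pregnant pair and 0.44 in the lactating pair. Both pregnant values and the lactating control value were dark, so these signs do not show whether the 3 pairs share a direction. The fitted value over the 3 pairs was 0.95 ± 0.49 (SE), given without a test because the virgin pair chose the gene. In the 4 pregnant and lactating arrays, which did not, limma gave 0.10 ± 0.33 (SE, 2 pairs), with an adjusted p of 0.996.

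The Pmel record overlaps 3 other gene records with probe sets on the array. It shares 7114 bases with Cdk2, a cyclin-dependent kinase gene that lies wholly inside it, 397 with Rab5b, an endosomal GTPase gene, and 108 with Dgka, a diacylglycerol kinase gene. Their virgin mutant minus control differences were -0.03 for Cdk2, 0.71 for Rab5b and 0.02 for Dgka. Beyond them, Ikzf4 had 0.91, Suox -0.13 and Pym1 0.41. Rab5b read 152.5 in the virgin mutant and 73.4 in the virgin control, and Ikzf4 179.4 in the virgin mutant and 71.3 in the virgin control. Of these 4 values only the 179.4 exceeded the highest Y-linked signal.

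The other melanosome genes were dimmer than Pmel in the virgin mutant. Dct and the brighter Slc45a2 probe set exceeded the highest Y-linked signal in both virgin mice, with Slc45a2 at 208.8 in the virgin mutant and 188.9 in the virgin control. Oca2 read 99.6 in the virgin mutant and 42.2 in the virgin control, and the dimmer Slc45a2 probe set 149.1 in the virgin mutant and 13.4 in the virgin control, all under the highest Y-linked signal. Mlana read 7.2 in the virgin mutant and 57.7 in the virgin control, and Dct 177.0 in the virgin mutant and 220.8 in the virgin control. The melanocyte list, which contains the 7 melanosome genes of this set, had 12 of 13 genes on the array. It summed to 6701 in the virgin mutant and 5984 in the virgin control. The largest members of these sums were Kit, at 2503.1 and 3013.0, and Sox10, at 1544.3 and 1156.4. Sox10 is also a gene of mammary epithelium, so the sums do not measure melanocytes alone. The sums also include the Pmel values that chose the set, 982.3 and 111.9. The higher mutant sum is thus no support for higher melanocyte markers in that mouse. Tyrp1, Mlana, Oca2, Gpr143 and Trpm1 stayed under the highest Y-linked signal on every array by their chosen probe set. The 10 genes most like Pmel over the 6 arrays had Pearson correlations of only 0.65 to 0.71, led by Cd5 (0.71) and Kif17 (0.70), with Cdca2, Pkp1, Cxcl13, Fbxw16, Tph1, Angptl7, Il27ra and Nptx1 after them.

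**Figure D4:**
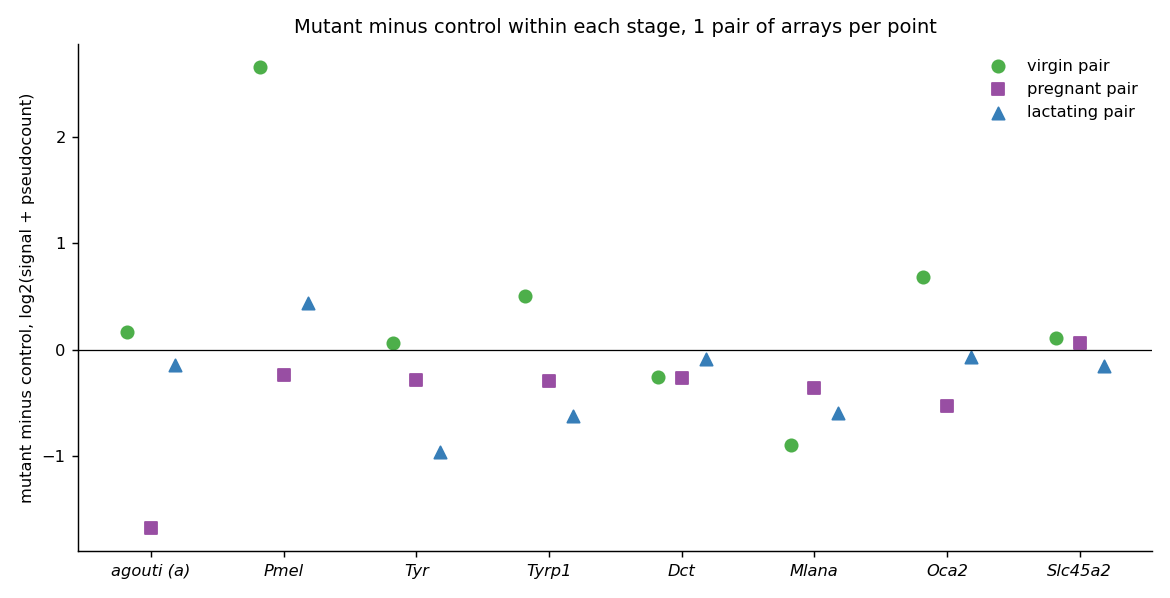
Mutant minus control difference in log2(signal + pseudocount) for the brightest probe set of each gene, 1 pair of arrays per point, with circles for the virgin, squares for the pregnant and triangles for the lactating pair. The virgin Pmel point (2.66) and the pregnant agouti point (-1.67) lie farthest from 0, and Dct and Mlana have all 3 points below 0.

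The remaining genes were compared between mutant and control over the 3 pairs. Of 11496 genes tested, 0 were called (0% of tested genes; limma, adjusted p under 0.05), while 540 had an unadjusted p under 0.05. No pigment gene with a test was among the called ones. For Tyr the difference was -0.39 ± 0.29 (95% interval -1.07 to 0.28, adjusted p = 0.938), and for Slc45a2 0.01 ± 0.22 (-0.50 to 0.51, adjusted p = 0.994). On this scale the Tyr interval reaches past a 2-fold decrease in mutants, and the Slc45a2 interval stays within a 2-fold change either way.

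The filter on dim genes, a mean log2 value of 7.715, was passed by a (9.34), Pmel (8.36), Slc45a2 (8.23) and, just inside, Tyr (7.77). Just outside lay Oca2 (7.67) and Dct (7.64), and further below Tyrp1 (7.07) and Mlana (6.84). Fitted without the filter over all 18193 genes, Mlana was -0.61 ± 0.25 (95% interval -1.20 to -0.03, unadjusted p = 0.0423, adjusted p = 0.958). It was lower in the mutant of all 3 pairs, by signals of 7.2 in the mutant and 57.7 in the control of the virgin pair, 29.9 in the mutant and 53.3 in the control of the pregnant pair, and 110.2 in the mutant and 192.5 in the control of the lactating pair, but all 6 values were dark. Dct was -0.20 ± 0.26, Tyrp1 -0.14 ± 0.30 and Oca2 0.03 ± 0.31, with adjusted p values of 0.966, 0.980 and 0.995.

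Between lactating and virgin glands the melanosome genes other than Pmel could be tested, since the pregnant arrays and the virgin Pmel value chose the set. Tyr, by its brightest probe set, read 260.3 and 555.2 on the lactating mutant and control arrays, against 71.9 and 66.5 on the virgin ones and 127.8 and 167.3 on the pregnant mutant and control arrays. Both lactating values were above the other 4, and the lactating control alone exceeded the highest Y-linked signal. The lactating minus virgin difference was 1.85 ± 0.36 (SE, n = 2 arrays a stage; 95% interval 1.02 to 2.67; limma, adjusted p = 0.00425). After each array was centred on its median it was 1.25 (adjusted p = 0.00963).

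The other Tyr probe sets did not bear out that size. One read 49.0 and 119.8 on the lactating mutant and control arrays, against 102.0 and 105.6 on the virgin mutant and control arrays, a difference of -0.24. The other read 40.8 and 35.1 on the lactating arrays, against 9.3 and 14.3 on the virgin arrays, a difference of 0.50. Tyr passed the filter only through its pregnant control and lactating values, and a gene that passes in this way had to differ to some degree, so its passing is no support for the difference.

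Slc45a2 read 380.0 and 429.0 on the lactating mutant and control arrays by its brighter probe set, against 208.8 and 188.9 on the virgin ones and 191.9 and 180.7 on the pregnant mutant and control arrays. Both lactating values were above both virgin values, as they were for 14 of 20 Y-linked probe sets. The lactating mutant value exceeded the highest Y-linked signal of its array, 353.3, and the lactating control value did not reach 483.5. The lactating minus virgin difference was 0.86 ± 0.27 (95% interval 0.25 to 1.48, adjusted p = 0.0277 by limma). It was 0.27 after median centring (adjusted p = 0.398) and 0.46 after quantile normalization (adjusted p = 0.150), so the call did not outlast either. The adjusted p was 0.0991 without the virgin mutant array, 0.173 without the virgin control array and 0.118 without the lactating control array. Its second probe set read 343.1 and 494.5 on the lactating mutant and control arrays, against 149.1 and 13.4 on the virgin mutant and control arrays.

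Among the genes that passed the filter, 23.7% were called higher in lactating glands and 28.3% lower. Because of the filter's part in the Tyr value, the members were read without it: 5 of the 6 melanosome genes other than Pmel were then called higher, against 23.5% of all 18193 genes. They were Tyr (adjusted p = 0.00673), Slc45a2 (adjusted p = 0.0461), Oca2 (1.68 ± 0.39, adjusted p = 0.0119), Mlana (1.31 ± 0.31, adjusted p = 0.0131) and Tyrp1 (1.12 ± 0.37, adjusted p = 0.0444, by limma). Oca2 read 321.3 and 339.6 on the lactating mutant and control arrays, against 99.6 and 42.2 on the virgin mutant and control arrays. Dct was not called, with 206.2 and 221.9 on the lactating mutant and control arrays, against 177.0 and 220.8 on the virgin ones, a difference of 0.09 ± 0.31 (95% interval -0.64 to 0.82).

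These shifts ran beside a general brightening of dark probe sets on the lactating arrays. The 20 Y-linked probe sets had a median lactating minus virgin difference of 0.84, with 18 of 20 higher. The 6697 genes under the filter had 0.49, with 4996 higher. The 12 melanosome probe sets had a median of 1.21, with 11 of 12 higher, and the 11496 tested genes -0.10, with 5316 higher. Both lactating arrays stood above the other 4 for 9 of 12 melanosome probe sets and for 13 of 20 Y-linked ones. The share of all probe sets with that order was not counted, so the order does not set the melanosome probe sets apart. Centring lowered all differences by a median of 0.59 and left the medians at 0.62 for the melanosome and 0.25 for the Y-linked probe sets. With centring and no filter, a setting chosen after seeing the data, Tyr (adjusted p = 0.0172) and Oca2 (1.09, adjusted p = 0.0423) stayed called, while Mlana (0.71), Tyrp1 (0.53) and Slc45a2 (0.27) did not, and Dct turned to -0.50. In that setting 9.57% of the 18193 genes were called higher. The part of the array background in the lactating values was not tested.

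**Figure D5:**
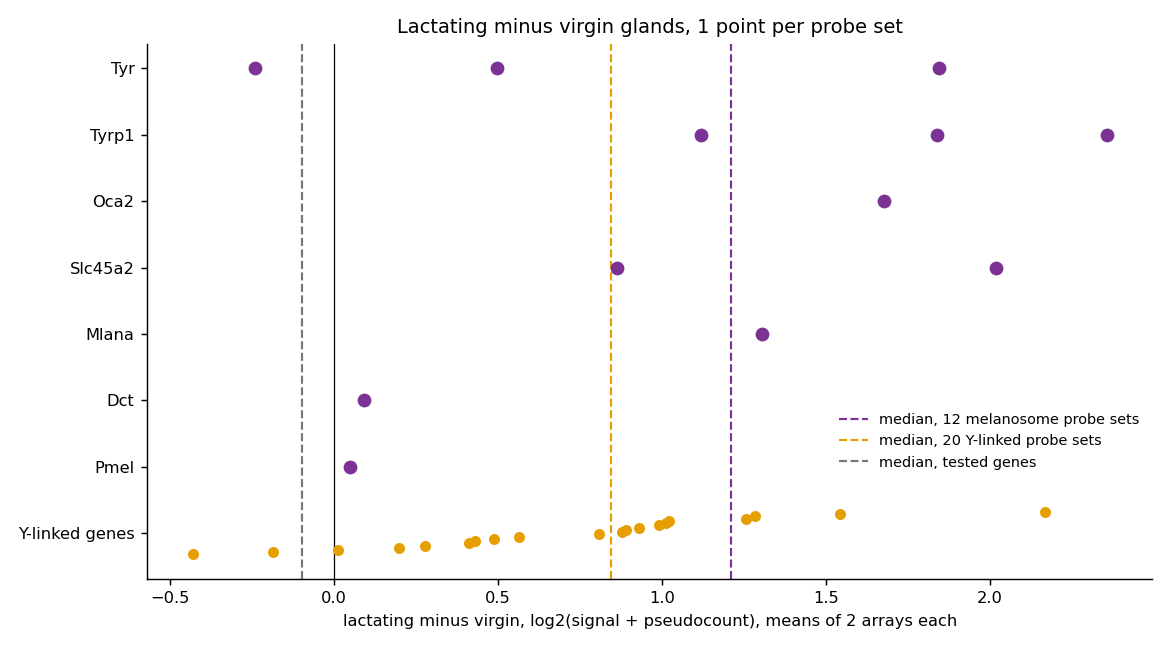
Lactating minus virgin difference in log2(signal + pseudocount), means of 2 arrays a stage, for the 12 melanosome probe sets by gene (purple) and the 20 Y-linked probe sets (orange, spread vertically by rank). Dashed lines give the medians, 1.21 for melanosome probe sets, 0.84 for Y-linked ones and -0.10 for all tested genes, and the 2 sets of points overlap over most of their range.

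The probe sets of Tyrp1 read 131.8, 103.2 and 156.4 in the lactating mutant and 231.6, 268.7 and 543.1 in the lactating control. All 3 were lower in the lactating mutant, and the last belongs to a probe set prone to cross-hybridisation. Over the 12 melanosome probe sets, 10 were lower in the lactating mutant than in the lactating control (83.3%). The same held for 12 of 20 Y-linked probe sets (60.0%) and for 52.6% of the 34945 probe sets with 1 symbol. The array medians over all probe sets but the array controls were 211.2 in the lactating mutant and 230.8 in the lactating control. Of the 72 values of melanosome probe sets, 13 exceeded the highest Y-linked signal of their array, and 5 of the 12 probe sets never did.

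The melanocortin pathway around agouti was followed in a list of 15 genes, 12 of them on the array and 7 tested. Mc1r, the receptor that agouti blocks, read 32.1 and 24.2 on the pregnant mutant and control arrays, against 75.0 and 112.6 on the virgin mutant and control arrays. It read 221.3 and 307.0 on the lactating mutant and control arrays, and only the virgin control value exceeded the highest Y-linked signal. The agonist precursor gene Pomc read 274.5 and 148.6 on the pregnant mutant and control arrays, against 265.3 and 227.1 on the virgin ones. Corin, a protease known to limit the effect of agouti in the hair follicle, was dark throughout, with 45.0 and 75.6 on the lactating mutant and control arrays as its highest values.

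In pregnant against virgin glands 1 of the 7 tested melanocortin genes fell and 0 rose, beside 8.26% of all tested genes lower and 6.45% higher, with a median log2 ratio of -0.25 (all tested genes -0.06). The gene was Mrap, the accessory protein of the corticotropin receptor Mc2r, at -1.87 ± 0.23 (limma, adjusted p = 0.00406). Mrap read 599.9 and 840.1 on the pregnant mutant and control arrays, against 2814.5 and 2667.5 on the virgin ones. The receptor itself, Mc2r, had -1.14 ± 0.34 (adjusted p = 0.0623). In lactating against virgin glands 3 of 7 fell and 0 rose, beside 28.3% of all tested genes lower and 23.7% higher, with a median of -0.83 (all tested genes -0.10). They were Mrap (-3.81), Atrnl1 (-1.18) and Atrn (-0.87), the last of which encodes attractin, which agouti signalling in skin requires. The adipocyte list summed to 117446 and 138027 on the pregnant mutant and control arrays, against 180985 and 179861 on the virgin ones, and its part in these changes was not tested.

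The list of melanocyte development had 12 genes, 11 of them tested. In pregnant glands 1 of 11 rose and 2 fell, beside 6.45% of all tested genes higher and 8.26% lower. Sox10 rose (1.31 ± 0.19, adjusted p = 0.00620 by limma). It encodes a factor of neural crest and of mammary epithelium. Lef1 (-1.72), a Wnt effector, and Ednrb (-0.85), the endothelin receptor, fell. Ednrb was no longer called after quantile normalization (adjusted p = 0.091). Median log2 ratios of this list were -0.64 in pregnant and -0.58 in lactating against virgin glands, and -1.18 in lactating glands after median centring. Quantile normalization gave a lactating median of 0.05 over 11 genes that hold Pax3 in place of Irf4. In lactating glands 2 of 11 rose and 5 fell, beside 23.7% of all tested genes higher and 28.3% lower. The called genes of the list included Sox10 (2.95), Edn3 (2.81), the ligand of Ednrb, Zeb2 (-2.84) and Mitf (-2.08), the master regulator of melanocytes. Edn3 lay above the filter level only on the lactating arrays. Irf4, among the 5 that fell, lay above it only on the virgin arrays. A gene that passes the filter in this way had to differ to some degree, so passing is no support for the Edn3 and Irf4 calls. Sox10 read 12068.5 and 9450.4 on the lactating mutant and control arrays, against 1544.3 and 1156.4 on the virgin ones. Mitf read 248.5 and 154.8 on the lactating arrays, against 960.9 and 1046.1 on the virgin arrays.

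Genes of melanosome assembly and transport made up a list of 31, with 29 on the array and 24 tested. In pregnant against virgin glands 5 of 24 fell and 0 rose, beside 8.26% of all tested genes lower and 6.45% higher, with a median of -0.33. They were Cited1 (-2.63), a transcriptional co-regulator of pigment cells and mammary epithelium, Myo5a (-1.21), the myosin motor of melanosome transport, Lyst (-1.21), Dtnbp1 (-0.85) and Rab32 (-0.87). Dtnbp1 and Rab32 lost their call under quantile normalization (adjusted p = 0.0993 and 0.0773). In lactating glands 6 of 24 fell and 4 rose, with a median of -0.12. These shares were close to or below the 28.3% lower and 23.7% higher of all tested genes. Cited1 (-3.66), Rab32 (-2.43), Myo5a (-2.18) and Dtnbp1 (-1.68) had the smallest p. The 4 that rose were Bloc1s3, Mlph, Ap3d1 and Ap3m1. After median centring 12 of 24 fell and 0 rose, beside 49.9% of all tested genes lower and 11.2% higher. Thus none of those 4 stayed called, and Ap3m1 turned to -0.01. Most macrophage and adipocyte genes were lower on the lactating arrays. Of 12 tested macrophage genes 8 fell and 1 rose (median -1.68). Of 12 tested adipocyte genes 9 fell and 0 rose (median -2.37). Among all tested genes 28.3% were lower and 23.7% higher. The macrophage list summed to 18372 and 23952 on the lactating mutant and control arrays, against 42746 and 46989 on the virgin ones, and the adipocyte list to 87613 and 97022, against 180985 and 179861. Their part in the falls of the pigment lists was not tested. Between mutant and control 0 genes of these 3 lists were called, and the medians were -0.21, 0.06 and -0.04 (all tested genes 0.03). The genes Cited1 and Rab32 are used widely outside pigment cells.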

How the data were processed

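The authors deposited 1 linear intensity for each probe set and array, a MAS5 signal according to the submitters' processing notes. The MAS5 version is not stated in the sources used here. Extraction of total RNA and biotin labelling are per the labels. Of 45101 probe sets, 64 were array controls, 34945 carried 1 symbol, 932 several and 9160 none. Only those with 1 symbol were assigned to genes, while the pseudocount, filter level and array medians were taken over all but the array controls. Probe sets were named from the platform annotation, and 18032 of 18193 genes matched RefSeq (GRCm38.p6) by gene ID.

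From the deposited values log2(signal + 52.0) was computed, with the 25th percentile as pseudocount; this scale understates changes of dim genes. A gene was represented by its brightest probe set, with probe sets prone to cross-hybridisation used only where no other existed. The filter kept 11496 genes whose mean log2 value was at least 7.715, the median over probe sets. In limma 3.58.1 under R 4.3.3, linear models with eBayes and a trend in the variance were fitted to all 6 arrays with terms for stage and genotype, which leaves 2 residual degrees of freedom, and Benjamini-Hochberg adjusted p-values over all tested genes were called at 0.05. The stage pairs the arrays, from the design text and labels. No stage and genotype had a replicate mouse, so the spread between mice of the same group could not be measured. In this model the p-values rest on how far the mutant minus control difference varied between stages, moderated over genes by eBayes. That variation also includes any effect of the different genotype scheme of the pregnant pair. The number of arrays limits the precision. Scripts were tested on simulated data.

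Named genes are all probe sets of the 8 members, the tested list genes with the smallest p (up to 4 a list and comparison, plus the other called genes of these lists, chosen after their values were seen), the signals of melanocortin genes, the 10 genes most like agouti and Pmel, and the 3 neighbours with probe sets on each side. Genes with the largest gaps to other arrays were named after their values were seen. The members and lists were chosen with earlier results of these data known. Alternatives were quantile normalization, median centring, pseudocounts of 14.9 and 168.4, no filter, averaging the probe sets of a gene, dropping the variance trend, the block or the genotype term, and leaving out arrays. Protein sequences were not used here.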

Additional observations from a re-analysis of the deposited data

Results flagged for a closer look

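For 6 of the 8 genes the mutant minus control difference ran one way in 1 stage and the opposite way in another, each from 1 pair of arrays. The differences between stages were not tested. The virgin and lactating values of agouti, and all values of Oca2 and of the chosen Tyrp1 probe set, lay under the highest Y-linked signal of their array, so their signs carry no order. Also under it were both pregnant values and the lactating control value of Pmel. So were all values of the chosen Tyr probe set but the lactating control, and the pregnant and lactating control values of Slc45a2. Opposite signs that rest on such values do not show a reversal. For agouti, the virgin difference minus the pregnant one was 1.84 on the log2 scale and the lactating one minus the virgin one -0.31. For Pmel, the virgin difference minus the pregnant one was 2.89 and the lactating minus the pregnant one 0.67. Virgin minus pregnant differences were 0.35 for Tyr, 0.80 for Tyrp1 and 1.22 for Oca2. Lactating minus virgin differences were -1.02 for Tyr, -1.13 for Tyrp1, -0.76 for Oca2 and -0.27 for Slc45a2, and the lactating minus pregnant one of Slc45a2 was -0.22.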

How the results depend on the processing

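Between mutant and control 0 genes were called under every alternative but the removal of lactating arrays. Without both of them 2 genes were called, Lep (-1.71) and Sncg (-2.01), named after their values were seen, and leaving out single arrays gave 0 to 2 calls. Without the stage block 0 genes were called, 17 had an unadjusted p under 0.05, and Tyr was -0.39 ± 0.69 (limma, adjusted p = 1); the block changed no call. Pregnant against virgin glands gave 1690 calls, 2759 without both lactating arrays and 304 (without the virgin control) to 2764 when single arrays were left out; 318 remained in number without the pregnant control. Lactating against virgin glands gave 5981 calls, and 3409 (without the virgin control) to 5636 with single arrays left out. Median centring took the share of higher calls to 26.5% from 43.8% in pregnant and to 18.4% from 45.5% in lactating glands, with shifts of the median tested gene to -0.24 and -0.69. For mutant against control, agouti ranged over -0.91 to 0.01 with single arrays left out, and Slc45a2 over -0.044 to 0.091; Slc45a2 was -0.046 after quantile normalization and -0.03 after centring, with or without the filter. Oca2 was -0.011 and Dct, lactating against virgin, -0.50 with centring and no filter. The causes of these changes were not tested. Pmel over the 3 pairs ranged over 0.10 to 1.55 with single arrays left out, and was 0.10 without both virgin arrays. Tyr in lactating against virgin glands ranged over 1.23 to 2.27 (adjusted p 0.00189 to 0.0494); most of these fits hold it only through the values that lifted it over the filter, and it fell under the filter with the mean of its probe sets. Slc45a2 was called in 9 of 15 alternatives. Most melanosome values lie near the dark level, which limits what can be said of them.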
